A study of Mus musculus with 6 samples.

Results

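The genes described here are the p53 pathway and its DNA damage response: Trp53, its regulators and a set of its target genes, 33 genes chosen by name out of the 23999 gene symbols of a read count table. All 33 were present in the table and all 33 were among the 14458 genes that passed the filter on low counts. The choice was made by gene function, with earlier results of these data known. The RNA, selected for poly(A) tails, was from mouse embryonic stem cells, cultured cells able to form every tissue of the body. All 6 samples carried a floxed element, named -5 in the labels, together with an exogenous mouse Nanog bearing a V5 tag, so the controls carried both as well. The vehicle samples (n = 3) had 6 days of ethanol, and the 4OHT samples (n = 3) had 6 days of tamoxifen as its active form 4OHT, a ligand often used to activate inducible forms of the Cre recombinase. A Nanog enhancer is the subject named by the series title. The labels do not say which Cre was present, whether the line was 1 clone, or whether the 3 samples of a group came from separate cultures, so p-values measure the spread between these samples, which may be technical.

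The transcription factor p53 is held at low levels by MDM2, which marks it for degradation, and by MDM4, which binds and blocks it. DNA damage kinases release p53 from this hold, and p53 then binds paired copies of a short sequence near genes that stop the cell cycle, start cell death, aid repair or restrain growth signalling. Mdm2 is itself a target, which closes a feedback loop. Because much of this control acts on the protein, the RNA level of Trp53 does not measure p53 activity. Embryonic stem cells are known for abundant p53 and a short G1 phase with little of the cell cycle inhibitor p21, the product of Cdkn1a.

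The sequence p53 binds, as a pair or as a single copy, is shown for some of the members whose promoter holds it. It is set beside how those genes moved. Promoter windows of 300 bases (250 before and 50 after a RefSeq gene start, GRCm38.p6) were matched by symbol to 24 of the 33 members. Rrm2b, Tnfrsf10b, Pvt1, Pmaip1, Xpc, Ddb2, Zmat3, Perp and Trp53inp1 were not matched. The p53 decamer is a half-site, a single copy of the pair that p53 binds. This consensus of 10 bases, whose reverse complement is the same consensus, was searched with no mismatch. It was found in the windows of 13 of the 24 members (54.2%), against 8.28% of the 10646 tested genes with a window and 8.36% of all 32851 windows. The list was assembled from known p53 genes, so this share is a description of the list. A pair of decamers separated by at most 13 bases was found in 24 of all windows (0.0731%) and, among the members, in Cdkn1a alone. Below are the stretches of the 4 members with a decamer that passed the test. Those of p53 itself, its inhibitor and a highly expressed target follow. Each lies upstream of the RefSeq gene start, in the gene's own direction and with the decamers in capitals. The Cdkn1a stretch holds a pair and each of the others a single decamer. The other members with a decamer are not shown. Cdkn1a, Bax and Ddit4l were lower after 4OHT, Ei24 was higher, and Trp53, Mdm2 and Ccng1 did not pass the test.
Cdkn1a: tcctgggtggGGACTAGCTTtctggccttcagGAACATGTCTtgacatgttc
Bax: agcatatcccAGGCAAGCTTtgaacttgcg
Ddit4l: caactcccagGGGCTTGCCTgggcccctgc
Ei24: cgtgcggcccGGGCATGCCC
Trp53: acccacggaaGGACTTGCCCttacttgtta
Mdm2: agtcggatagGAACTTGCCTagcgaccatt
Ccng1: agacctgcccGGGCAAGCCTtggcactgaa

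The Cdkn1a stretch lies on the plus strand at chr17:29090896-29090947, upstream of the first of 2 RefSeq starts of the gene. Its decamers span the bases 73 to 42 before that start. The window at the second start held no decamer. A search with no mismatch leaves near matches in lower case, so the capitals need not mark the whole element that p53 binds. The Ei24 stretch lies on the minus strand at chr9:36797335-36797354 and its decamer ends 1 base before the start. The Bax, Ccng1 and Mdm2 stretches lie on the minus strand at chr7:45467080-45467109, chr11:40755452-40755481 and chr10:117710925-117710954. The Ddit4l and Trp53 stretches lie on the plus strand at chr3:137623572-137623601 and chr11:69580274-69580303. Of the 8 members with a window that passed the test of 4OHT against vehicle 4 held the decamer, and of the 16 that did not pass 9 held it. Btg2, Sesn2, Gadd45b and Plk2 passed the test and their windows held no decamer. A match is a description of these letters and not a measured binding site.

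The libraries held between 515388 and 55194644 counts. The 515388 counts were those of 4OHT replicate 2, in which 1 read was worth 1.91 CPM (read counts scaled to library size) and a count of 0 allows up to 5.73 CPM, the worth of 3 reads, for counting error only, and the other 5 libraries held at least 20030423. In 4OHT replicate 2, Gadd45g, Fas and Rrm2b had no read and 10 of the 33 members had fewer than 10 reads, so for those genes the 4OHT level rests mainly on replicates 1 and 3. Nanog, whose reads can also come from the tagged copy, was at 644 ± 14.5 CPM with vehicle and at 181 ± 11.5 CPM with 4OHT (here and below mean ± SD, n = 3). The 9 stem cell markers summed to 6291 to 6467 CPM per vehicle library and to 5914 to 6178 CPM per 4OHT library, and all 9 were detected. In the test given below Nanog and Pou5f1 fell, Sox2 and Sall4 rose and 5 did not pass. That is 44.4% called, against 22.4% of all tested genes. Of the 10 primitive endoderm markers 10 rose (100% called, against 22.4% of all tested genes). They summed to 148 to 163 CPM in vehicle and 252 to 304 CPM in 4OHT libraries. Lama1 and Col4a1, at 94.3 and 52.4 CPM on average in vehicle, made up most of this sum and rose 1.46-fold and 1.68-fold. The median log2 fold change of the 10 was 2.46. The 8 markers of the 2-cell-like state all rose (100% called, against 22.4% of all tested genes). They summed to 7.99 to 8.51 CPM in vehicle and 24.8 to 25.7 CPM in 4OHT libraries. The 10 feeder fibroblast markers summed to 26.9 to 28.4 and 16.8 to 24.8 CPM. Of the 5 tested 1 (Thy1) fell (20% called, against 22.4% of all tested genes). Thy1, Pdgfrb, Twist1 and Col1a1 averaged 15.9, 7.11, 2.37 and 1.66 CPM in vehicle, and Col1a2 and Twist2 0.314 and 0.0711 CPM. Postn, Lum, Dcn and Col3a1 were at or near 0 in every library. The part of these other cells in the results below was not tested. In bulk RNA, a change in the number of cells that express a gene and a change in RNA per cell cannot be told apart.

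Of the 33 members 5 were higher and 6 were lower after 4OHT by edgeR's quasi-likelihood test (adjusted p of at most 0.05 over all 14458 tested genes), and 22 did not pass. These 11 are 33.3% of the members, against 22.4% of all tested genes (11.9% higher and 10.5% lower). The members that rose were Gadd45b, Ei24, Sesn2, Pmaip1 and Plk2, by 1.14-fold to 1.63-fold. The members that fell were Btg2, Perp, Cdkn1a, Ddit4l, Pvt1 and Bax, and their vehicle level was 1.16-fold to 1.47-fold the 4OHT level. The changes were small, with 31 of the 33 members under 1.5-fold in either direction and only Gadd45b and Ei24 above it. The same held for most tested genes. Of all 14458, 719 were at least 1.5-fold up and 715 at least 1.5-fold down. The median log2 fold change was -0.05 over the members and 0.00 over all tested genes. The CPM of the groups did not overlap for 15 of the 33 members (45.5%; 6 higher and 9 lower), against 31.3% of all tested genes (14.7% higher and 16.5% lower). DESeq2 called fewer genes in all, 944 of the 20396 with a p-value, beside 3233 of 14458 in edgeR. It also called fewer members, 2 higher and 3 lower. Without vehicle replicate 1 or 2 edgeR called 3 members higher, and without vehicle replicate 3 it called 3 lower. Genes called in all were 2591, 2368 and 2505 without vehicle replicates 1, 2 and 3. Leaving out the shallow 4OHT replicate 2, edgeR called 5 higher and 5 lower.

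**Figure D1:**
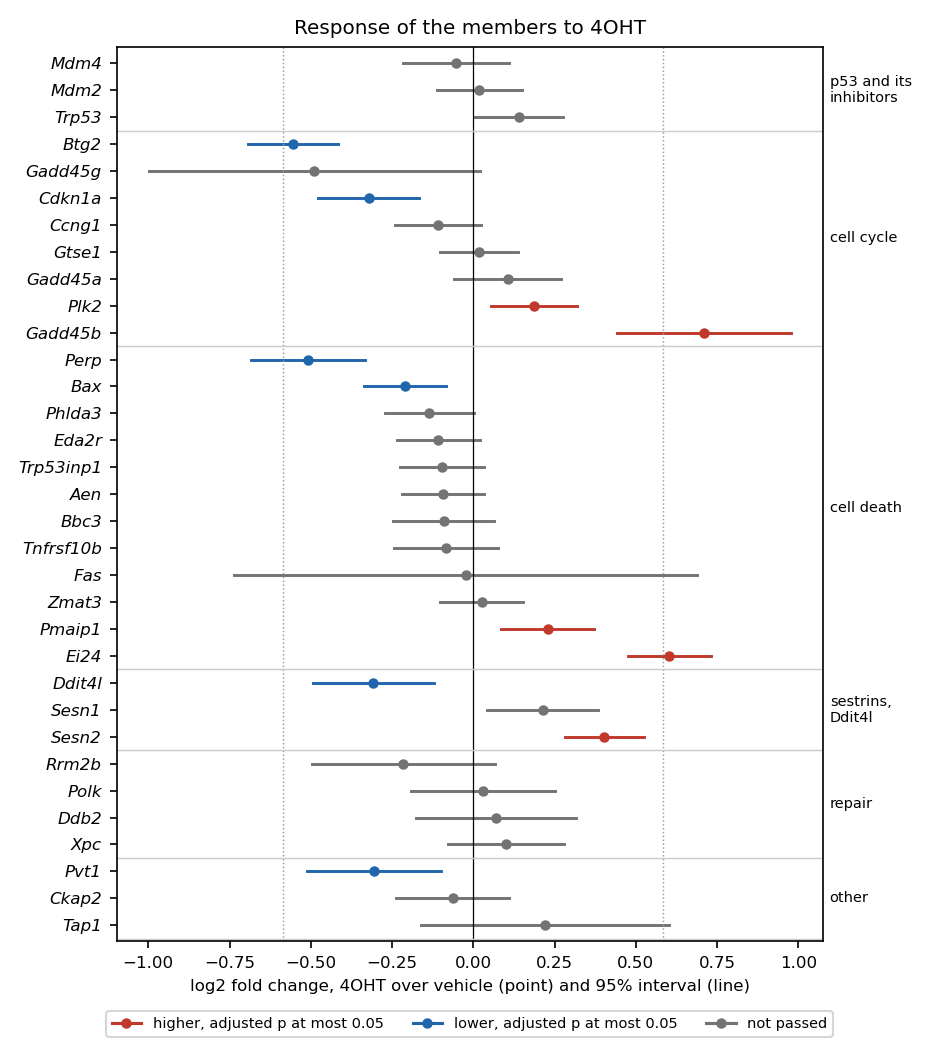
Log2 fold change of 4OHT over vehicle for the 33 members (point) with its 95% interval (line), ordered within each role; red is higher and blue lower with an adjusted p in edgeR of at most 0.05, grey did not pass, and dotted lines mark 1.5-fold. Only Gadd45b (0.71) and Ei24 (0.60) lie beyond the dotted lines, and Fas and Gadd45g have the widest intervals.

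The upstream factors did not pass the test. Trp53 stood at 476, 495 and 503 CPM in vehicle replicates 1 to 3 and at 509, 506 and 590 CPM in 4OHT replicates 1 to 3. All 4OHT values lay above the vehicle values, but 4OHT replicates 1 and 2 were close to the highest vehicle library and replicate 3 stood apart. The log2 fold change was 0.14 (SE 0.07, adjusted p = 0.138 in edgeR), and blocking on the replicate number gave 0.14 and an adjusted p of 0.0141 in edgeR. Without 4OHT replicate 1 it was 0.21 (adjusted p = 0.00257 in edgeR), and without 4OHT replicate 3 it was 0.047 (adjusted p = 0.657 in edgeR). Mdm2, the ubiquitin ligase gene that is both inhibitor and target of p53, stood at 147, 150 and 146 CPM in vehicle and at 154, 122 and 150 CPM in 4OHT libraries. The vehicle values lay inside the 4OHT range, and the log2 fold change was 0.02 with a 95% interval of -0.11 to 0.15. Mdm4, the second inhibitor, stood at 182, 171 and 165 CPM against 187, 160 and 147 CPM. Its log2 fold change of -0.05 (95% interval -0.22 to 0.11) depended on single libraries, being -0.22 (adjusted p = 0.00425 in edgeR) without 4OHT replicate 1 and 0.09 (adjusted p = 0.349 in edgeR) without 4OHT replicate 3. With all libraries in the fit, none of these 3 genes was called by edgeR without the block or by DESeq2. In that edgeR fit 1 of them (Trp53, higher) had an unadjusted p under 0.05.

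Among the 8 members that act on the cell cycle 2 rose, 2 fell and 4 did not pass (50% called, against 22.4% of all tested genes). Cdkn1a, which encodes the cyclin-dependent kinase inhibitor p21, stood at 34.9, 36.8 and 32.6 CPM in vehicle and at 27.3, 22.9 and 28.6 CPM in 4OHT libraries. All 4OHT values lay below all vehicle values. Cdkn1a fell by 0.32 in log2 units (SE 0.07, 95% interval -0.48 to -0.17, adjusted p = 0.00334 in edgeR), and DESeq2 gave an adjusted p of 0.152. An opposite-strand gene, AC167363.2, overlaps 7.68% of its exon bases. Btg2, an antiproliferative gene and immediate target of p53, stood at 65.3, 65.4 and 63.7 CPM in vehicle and at 43.7, 57.3 and 43.5 CPM in 4OHT libraries. The vehicle libraries lay close together and the highest 4OHT value, that of the shallow replicate 2, came from 30 reads. Btg2 fell by 0.56 in log2 units (SE 0.07, adjusted p = 3.03e-06 in edgeR), the largest fall among the members, and was called in all 13 alternative analyses. Ccng1, which encodes the p53-induced cyclin G1, stood at 528, 577 and 595 CPM against 516, 491 and 551 CPM. The groups overlapped and it did not pass (log2 fold change -0.11, 95% interval -0.24 to 0.02).

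The GADD45 genes, which encode small growth arrest and stress sensor proteins, had 1 rise and 2 members that did not pass. Of all tested genes 22.4% were called. Gadd45b stood at 5.93, 6.27 and 5.37 CPM in vehicle and at 10.7, 13.4 and 8.03 CPM in 4OHT libraries, without overlap. The 13.4 CPM came from 7 reads, and the deep libraries of replicates 1 and 3 also lay above every vehicle library. Its log2 fold change of 0.71 (SE 0.13, 95% interval 0.44 to 0.98, adjusted p = 0.000323 in edgeR) was the largest of the 33, and the DESeq2 adjusted p was 0.0769. Gadd45a, the family member most often named as a p53 target, stood at 33.0, 29.4 and 29.5 CPM against 35.3, 28.6 and 31.0 CPM and did not pass (log2 fold change 0.11, 95% interval -0.06 to 0.27). An opposite-strand gene, E230016M11Rik, overlaps 19.1% of its exon bases. Gadd45g, at 1.002 to 1.26 CPM in vehicle and 0.822 and 0.751 CPM in 4OHT replicates 1 and 3, did not pass either (log2 fold change -0.49, 95% interval -0.999 to 0.02). Whether the 3 responses differ from each other was not tested. Plk2, a polo-like kinase gene induced by stress, stood at 48.2, 47.9 and 46.0 CPM in vehicle and at 55.1, 55.4 and 52.6 CPM in 4OHT libraries. The groups were separate and close together, and the rise of 0.19 on the log2 scale (SE 0.06, adjusted p = 0.0393 in edgeR) was called in 5 of 13 alternatives, with adjusted p in edgeR of 0.0928, 0.15 and 0.173 without vehicle replicates 1, 2 and 3 and 0.115 without 4OHT replicate 1. Gtse1, which encodes a G2 and S phase protein that restrains p53, stood at 299, 286 and 282 CPM against 296, 283 and 292 CPM, and the log2 fold change was 0.02 (95% interval -0.10 to 0.14).

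**Figure D2:**
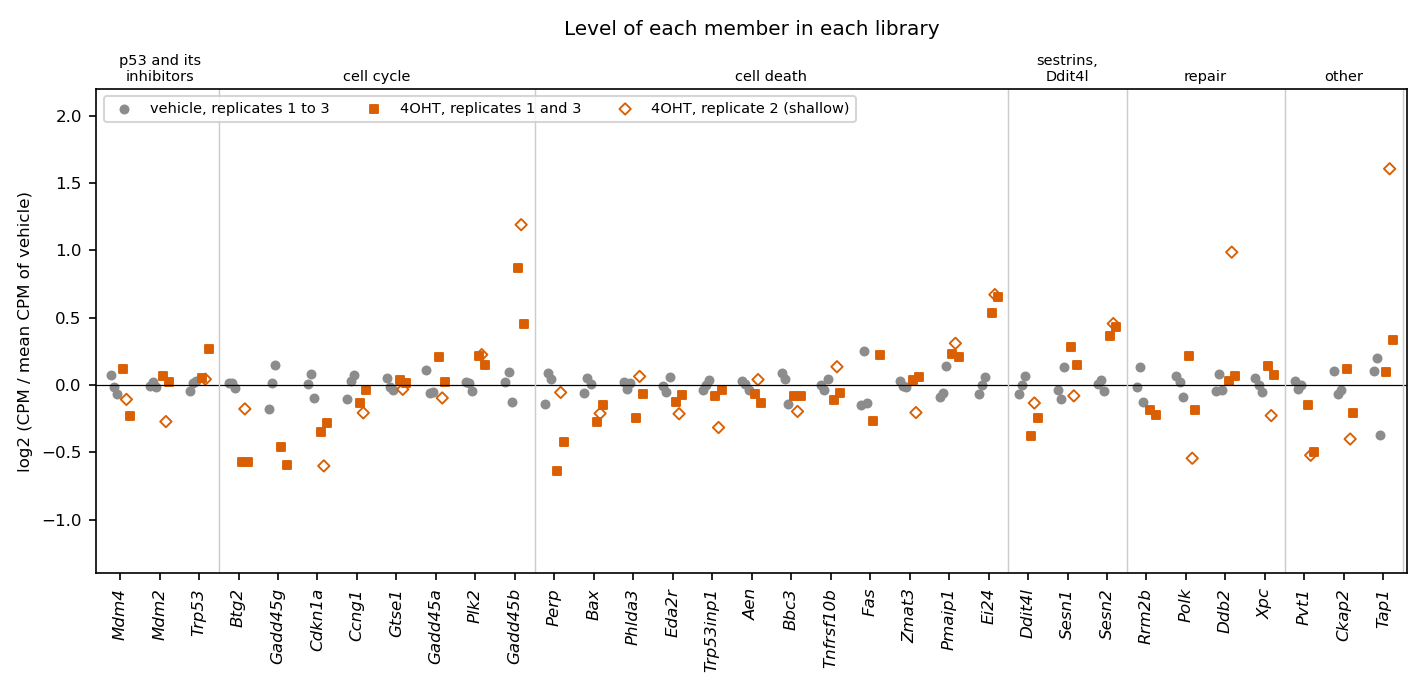
Level of each of the 33 members in each of the 6 libraries, as log2 of CPM over the mean CPM of the vehicle group; grey circles are vehicle, filled squares 4OHT replicates 1 and 3, and open diamonds the shallow 4OHT replicate 2, with libraries at 0 reads (Gadd45g, Fas and Rrm2b in that replicate) not drawn. The squares and diamonds of Ei24, Sesn2 and Gadd45b lie above their grey circles and those of Cdkn1a and Btg2 below, while the open diamond stands far from the squares for Tap1 and Ddb2, which had 4 and 7 reads there.

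Of the 12 members tied to cell death 2 rose, 2 fell and 8 did not pass (33.3% called, against 22.4% of all tested genes). Ei24, which encodes a membrane protein of the endoplasmic reticulum first found as induced by etoposide and linked to autophagy, stood at 144, 151 and 158 CPM in vehicle and at 219, 241 and 237 CPM in 4OHT libraries. The lowest 4OHT library was well above the highest vehicle library, and the level rose 1.52-fold (log2 fold change 0.60, SE 0.06, 95% interval 0.47 to 0.73, adjusted p = 3.34e-07 in edgeR). Ei24 was called in all 13 alternatives, with log2 fold changes between 0.55 and 0.66. An opposite-strand gene, Gm26787, overlaps 6.66% of its exon bases. Pmaip1, which encodes the BH3-only protein NOXA, stood at 71.1, 72.3 and 83.2 CPM in vehicle and at 88.7, 93.6 and 87.3 CPM in 4OHT libraries. The groups were separate, with vehicle replicate 3 nearest to the 4OHT values. Its log2 fold change was 0.23 (SE 0.07, adjusted p = 0.0201 in edgeR), and the adjusted p in edgeR was 0.13 without vehicle replicate 1 and 0.14 without vehicle replicate 2. Bbc3, which encodes PUMA, the other BH3-only target of p53, stood at 39.6, 38.3 and 33.7 CPM against 35.1, 32.5 and 35.1 CPM. Its groups overlapped and it did not pass (log2 fold change -0.09, 95% interval -0.25 to 0.06).

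Bax, which encodes the pore-forming death effector, stood at 227, 245 and 238 CPM in vehicle and at 195, 204 and 214 CPM in 4OHT libraries. All 4OHT values lay below all vehicle values. Bax fell by 0.21 in log2 units (SE 0.06, 95% interval -0.34 to -0.08, adjusted p = 0.0161 in edgeR), and its adjusted p in edgeR was 0.0869, 0.0608 and 0.0543 without vehicle replicate 2, vehicle replicate 3 and 4OHT replicate 1. A same-strand gene model, Gm45808, shares 12.2% of its exon bases. Perp, which encodes a tetraspan membrane protein of desmosomes that p53 induces in dying cells, stood at 39.7, 46.4 and 44.9 CPM in vehicle and at 28.1, 42.0 and 32.6 CPM in 4OHT libraries. It was the called member whose groups overlapped, through the 42.0 CPM of 4OHT replicate 2, which came from 22 reads. Perp fell by 0.51 in log2 units (SE 0.08, 95% interval -0.69 to -0.33, adjusted p = 0.000168 in edgeR) and was called in all 13 alternatives.

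The other 7 members of this group had log2 fold changes between -0.14 and 0.03. Phlda3, an inhibitor of AKT signalling, stood at 163, 157 and 162 CPM against 135, 168 and 154 CPM (log2 fold change -0.14, adjusted p = 0.156 in edgeR). Blocking on the replicate number gave a log2 fold change of -0.15 and an adjusted p of 0.0199 in edgeR, while leaving out 4OHT replicate 3 gave -0.22 (adjusted p = 0.00968 in edgeR) and leaving out 4OHT replicate 1 gave -0.051 (adjusted p = 0.611 in edgeR). Trp53inp1, which encodes a nuclear protein that favours p53-driven death, stood at 308, 316 and 325 CPM against 298, 254 and 307 CPM, and Eda2r, a TNF receptor family gene, at 86.0, 83.2 and 89.96 CPM against 79.1, 74.5 and 82.1 CPM. For both the 4OHT values lay below the vehicle values but neither passed (log2 fold changes -0.10 and -0.11, adjusted p = 0.302 and 0.237 in edgeR). Aen, a nuclease gene, Tnfrsf10b, the mouse TRAIL receptor gene, and Zmat3, which encodes an RNA-binding zinc finger protein, had log2 fold changes of -0.09, -0.08 and 0.03 with overlapping groups. Fas, the death receptor gene, was at 0.347 to 0.498 CPM in the 5 deep libraries and had no read in 4OHT replicate 2, and its 95% interval of -0.74 to 0.69 holds changes of over 1.5-fold in either direction, so such changes were not detectable at this depth.

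Of the members that restrain growth signalling under stress Sesn2 rose, Ddit4l fell and Sesn1 did not pass (66.7% called, against 22.4% of all tested genes). Sesn2, which encodes a sestrin that inhibits mTORC1 when leucine is scarce, stood at 142, 144 and 136 CPM in vehicle and at 181, 193 and 189 CPM in 4OHT libraries. The groups were well separated, and the level rose 1.32-fold (log2 fold change 0.40, SE 0.06, 95% interval 0.28 to 0.52, adjusted p = 3.02e-05 in edgeR). It was called in all 13 alternatives, with log2 fold changes between 0.38 and 0.43. Sesn1, its paralogue, stood at 23.6, 22.6 and 26.6 CPM against 29.5, 22.9 and 26.9 CPM. These groups overlapped and the log2 fold change of 0.21 did not pass (95% interval 0.04 to 0.39, adjusted p = 0.0693 in edgeR), and it moved with single libraries. It was 0.28 (adjusted p = 0.0413 in edgeR) when vehicle replicate 3 was left out and 0.27 (adjusted p = 0.00873 in edgeR) when 4OHT replicate 3 was, but 0.16 (adjusted p = 0.324 in edgeR) when vehicle replicate 2 was left out and 0.14 (adjusted p = 0.265 in edgeR) when 4OHT replicate 1 was. Ddit4l, which encodes an mTORC1 inhibitor also called REDD2, stood at 16.01, 16.8 and 17.5 CPM in vehicle and at 12.9, 15.3 and 14.2 CPM in 4OHT libraries, without overlap. It fell by 0.31 in log2 units (SE 0.09, adjusted p = 0.0163 in edgeR), with an adjusted p in edgeR of 0.0828 without vehicle replicate 3 and 0.107 without 4OHT replicate 1.

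None of the 4 repair members passed in edgeR, where 22.4% of all tested genes were called, or in DESeq2. None of them had an unadjusted edgeR p under 0.05. Ddb2 and Xpc, which encode damage sensors of nucleotide excision repair, had log2 fold changes of 0.07 (95% interval -0.17 to 0.32) and 0.10 (95% interval -0.08 to 0.28). An opposite-strand gene, Acp2, overlaps 23.8% of the exon bases of Ddb2. Polk, a translesion polymerase gene, had a log2 fold change of 0.03 (95% interval -0.19 to 0.25). Rrm2b, which encodes the p53-inducible small subunit of ribonucleotide reductase, stood at 7.58, 8.41 and 7.01 CPM in vehicle and at 6.74, 0 and 6.56 CPM in 4OHT libraries, and its log2 fold change was -0.21 (95% interval -0.50 to 0.07). All 4 were low, at 6.75 to 16.7 CPM on average in vehicle, and in 4OHT replicate 2 none had more than 7 reads.

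Of the remaining members Pvt1 fell and Ckap2 and Tap1 did not pass (33.3% called, against 22.4% of all tested genes). Pvt1, a long noncoding RNA gene next to Myc, stood at 16.8, 16.1 and 16.5 CPM in vehicle and at 14.8, 11.5 and 11.6 CPM in 4OHT libraries. All 4OHT values were lower, but replicate 1 was the nearest to vehicle. Pvt1 fell by 0.31 in log2 units (SE 0.10, adjusted p = 0.0311 in edgeR) and was called in 6 of 13 alternatives, with adjusted p in edgeR of 0.0813 and 0.0713 without vehicle replicates 1 and 3, 0.0557 without 4OHT replicate 2 and 0.223 without 4OHT replicate 3. Its log2 fold change was -0.16 without 4OHT replicate 3 and -0.51 without 4OHT replicate 1 (adjusted p = 0.000128 in edgeR). Ckap2, a mitotic spindle gene, stood at 166, 146 and 150 CPM against 167, 116 and 133 CPM. The 4OHT values spanned the vehicle range, and the log2 fold change of -0.06 became -0.23 (adjusted p = 0.00356 in edgeR) without 4OHT replicate 1 and 0.06 (adjusted p = 0.526 in edgeR) without 4OHT replicate 3. Tap1, a peptide transporter gene, was at 1.94 to 2.89 CPM in vehicle and 2.69, 7.64 and 3.17 CPM in 4OHT libraries, where the 7.64 CPM came from 4 reads (log2 fold change 0.22, 95% interval -0.16 to 0.60).

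**Figure D3:**
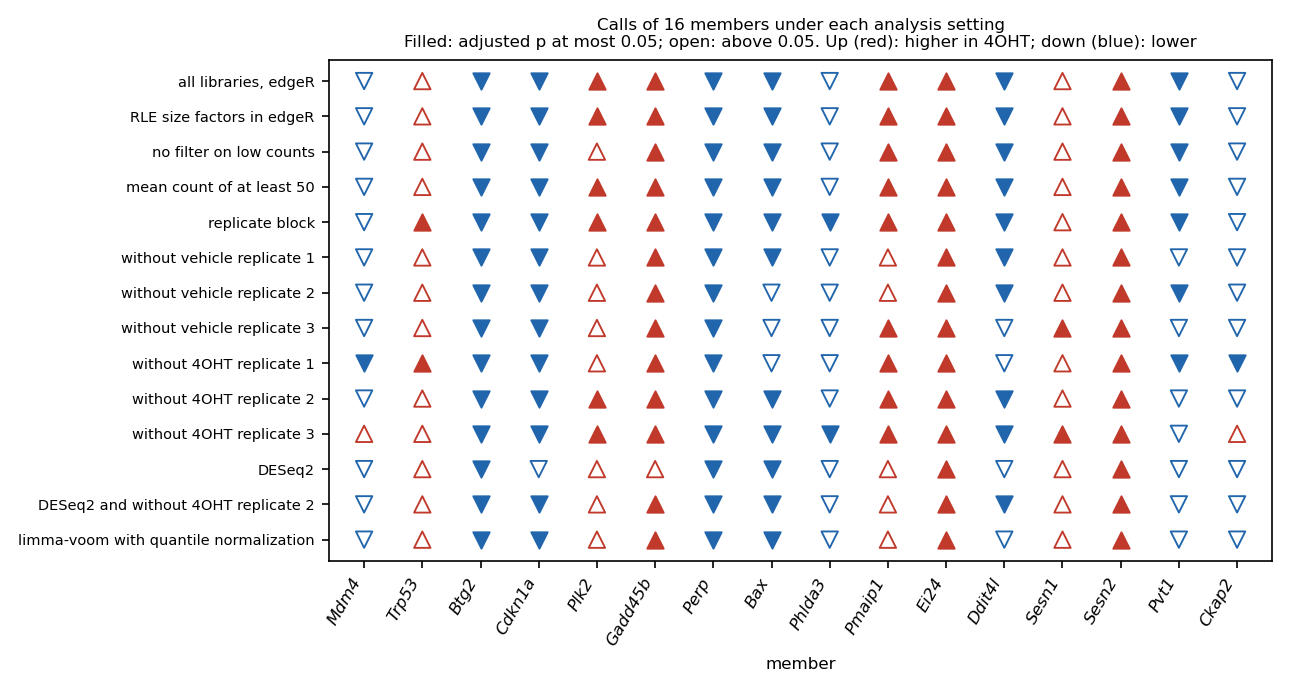
Calls of the 16 members that passed in at least 1 analysis (columns) under each of 14 analysis settings (rows); upward red triangles are higher and downward blue ones lower in 4OHT, filled where the adjusted p was at most 0.05. Btg2, Perp, Ei24 and Sesn2 are filled in every row, Cdkn1a and Gadd45b in every row but that of DESeq2 with all libraries, and Mdm4 and Ckap2 change direction without 4OHT replicate 3.

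Scaled by length, as CPM per kilobase of GENCODE vM21 exon, the members spanned a wide range in vehicle cells. Ccng1 was the highest at 161 and Bax followed at 150 CPM per kilobase, with overlapping ranges over the 3 vehicle libraries. Trp53 came next at 121.5 CPM per kilobase, and its range did not overlap those of its neighbours in the order. Gtse1 and Phlda3, at 105 and 103 CPM per kilobase, overlapped each other. Mdm2 at 29.0 CPM per kilobase stood above Mdm4 at 11.7, and Cdkn1a at 9.79 CPM per kilobase was 21st of the 33, with Plk2 just above it and overlapping. The sestrin gene Sesn2 at 40.5 CPM per kilobase was above Sesn1 at 6.09, and Gadd45a at 17.4 was above Gadd45b at 3.69 and Gadd45g at 0.967. The 4 lowest were Gadd45g, Rrm2b, Tap1 and Fas, all under 1 CPM per kilobase. The isoforms used in these cells are not known from gene-level counts, so the order is approximate.

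**Figure D4:**
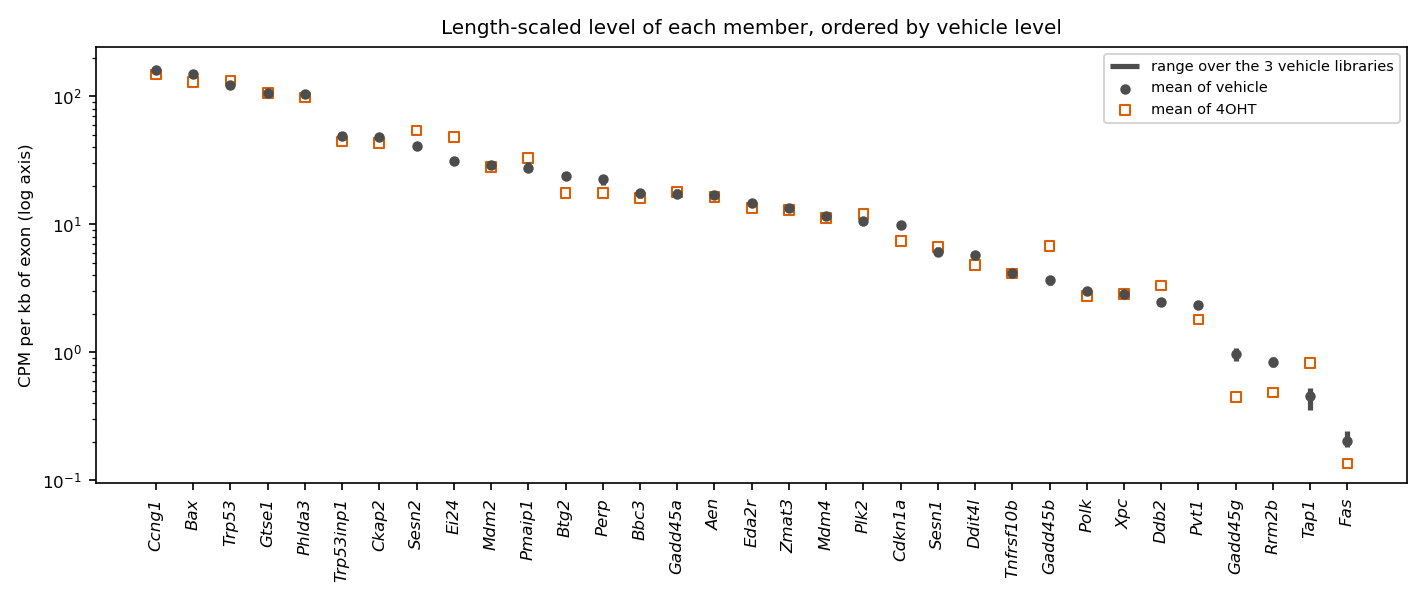
Mean level of each member in CPM per kilobase of exon on a log axis, ordered by the vehicle level; filled circles are vehicle means with the range over the 3 vehicle libraries as a bar, and open squares are 4OHT means. The order runs from Ccng1 at 161 to Fas at 0.203 CPM per kilobase in vehicle, and the open square of Gadd45b stands above its circle. The squares are means that include the shallow 4OHT replicate 2. There Tap1 and Ddb2, whose squares also stand above, had 4 and 7 reads. Gadd45g, Rrm2b and Fas, whose squares stand below, had no read in it.

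Genes that control p53 without being on the list above were looked at next. Of 26 regulators and cofactors 25 were tested, of which 5 rose, 2 fell and 18 did not pass (28.0% called, against 22.4% of all tested genes; median log2 fold change 0.05). Trp63, the p53 family gene left out, had at most 3 reads in any library. The rises were Arih2, Trim24, Crebbp, Ep300 and Usp7. Arih2, a ubiquitin ligase gene, rose from 176 ± 3.87 CPM in vehicle to 215 ± 20.7 CPM in 4OHT cells (log2 fold change 0.34, SE 0.06, adjusted p = 0.000361 in edgeR). Trim24, which encodes a ligase that targets p53, rose from 190 ± 8.59 CPM in vehicle to 235 ± 26.9 CPM in 4OHT cells (log2 fold change 0.36, SE 0.07, adjusted p = 0.000534 in edgeR). Crebbp, an acetyltransferase gene, rose from 61.8 ± 3.79 CPM in vehicle to 75.5 ± 5.27 CPM in 4OHT cells (log2 fold change 0.27, adjusted p = 0.0085 in edgeR), and without 4OHT replicate 1 its log2 fold change was 0.17 (adjusted p = 0.0524 in edgeR). The falls were Ppp1r13b, which encodes the p53 partner ASPP1 (log2 fold change -0.35, adjusted p = 0.0171 in edgeR), and Trp73. The counts depended on single vehicle libraries, with 3, 2 and 2 rises and 1, 0 and 0 falls without vehicle replicates 1, 2 and 3. The replicate block gave 7 rises and 3 falls, and DESeq2 called 2 rises and no fall (5 falls at an unadjusted edgeR p under 0.05).

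Among 49 further p53 target genes 5 rose, 11 fell and 33 did not pass (32.7% called, against 22.4% of all tested genes; median log2 fold change -0.11). Falls outnumbered rises in this list, while of all tested genes 11.9% were higher and 10.5% lower. The replicate block gave 19 falls and 5 rises, beside 1958 falls and 2115 rises among all tested genes. There were 7 falls without vehicle replicate 2, and 3 falls and 2 rises in DESeq2. Pml, which encodes the scaffold of PML nuclear bodies, stood at 88.3, 84.1 and 87.8 CPM in vehicle and at 125, 132 and 130 CPM in 4OHT libraries (log2 fold change 0.56, SE 0.06, adjusted p = 5.43e-07 in edgeR). Kitl, the gene of KIT ligand, rose 2.03-fold from 4.28 ± 0.959 CPM in vehicle to 8.37 ± 0.74 CPM in 4OHT cells (log2 fold change 1.02, SE 0.14, adjusted p = 1.01e-05 in edgeR). Both were higher in all 3 4OHT libraries than in any vehicle library. Sfn, which encodes 14-3-3 sigma, an inhibitor of entry into mitosis, stood at 33.3, 32.6 and 35.8 CPM in vehicle and at 21.5, 36.3 and 21.7 CPM in 4OHT libraries. It fell by 0.63 in log2 units (SE 0.08, adjusted p = 1.15e-05 in edgeR), with overlap through 4OHT replicate 2, where it had 19 reads. Ak1, an adenylate kinase gene, fell from 110 ± 3.04 CPM in vehicle to 83.2 ± 6.41 CPM in 4OHT cells (log2 fold change -0.46, adjusted p = 1.61e-05 in edgeR).

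Genes that sense DNA damage and carry the signal to p53 mostly did not pass. Of 26 tested genes 2 rose, none fell and 24 did not pass (7.69% called, against 22.4%; median log2 fold change 0.00), and the log2 fold changes lay between -0.15 and 0.33. With all libraries in the fit, no fall was called by edgeR without the replicate block or by DESeq2. The block gave 1 fall, and 1 gene was lower at an unadjusted edgeR p under 0.05. Atm, Chek1 and Chek2, kinase genes of the response picked after their values were seen, had log2 fold changes of 0.12, 0.10 and 0.00 and did not pass. The 2 rises were Trp53bp1, which encodes the double-strand break factor 53BP1 (log2 fold change 0.25, SE 0.07, adjusted p = 0.0151 in edgeR), and Rbbp8, which encodes the end resection factor CtIP (log2 fold change 0.33, SE 0.10, adjusted p = 0.0245 in edgeR). An opposite-strand gene, Tubgcp4, overlaps 15.04% of the exon bases of Trp53bp1. Neither rise was called by DESeq2 with all libraries, Trp53bp1 had an adjusted p in edgeR of 0.0836, 0.0842 and 0.139 without vehicle replicate 2, vehicle replicate 3 and 4OHT replicate 1, and Rbbp8 one of 0.0744, 0.0733 and 0.456. Leaving out 4OHT replicate 1 lowered the log2 fold change of Trp53bp1 to 0.13 and that of Rbbp8 to 0.091, and leaving out 4OHT replicate 3 raised that of Rbbp8 to 0.50. The counts moved with single libraries, from 0 rises without vehicle replicate 2 or vehicle replicate 3 to 6 rises and 1 fall without 4OHT replicate 3 and 1 rise and 5 falls without 4OHT replicate 1.

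In the list of 46 DNA repair genes 5 rose, 2 fell and 39 did not pass (15.2% called, against 22.4%; median log2 fold change -0.02). Ddb1, which encodes the partner of DDB2 in damage recognition, rose from 1519 ± 35.8 CPM in vehicle to 1758 ± 74.7 CPM in 4OHT cells (log2 fold change 0.21, adjusted p = 0.0128 in edgeR), and Fanca, a Fanconi anaemia gene, from 37.5 ± 0.949 to 44.3 ± 0.895 CPM (log2 fold change 0.25, adjusted p = 0.00901 in edgeR). An opposite-strand gene, Zfp276, overlaps 10.5% of the exon bases of Fanca. Ercc8 of transcription-coupled repair and the translesion polymerase gene Poli fell (log2 fold changes -0.35 and -0.26, adjusted p = 0.00488 and 0.0085 in edgeR). The number of falls was 5 under the replicate block and also 5 without 4OHT replicate 1, and the number of rises was 2, 3 and 2 without vehicle replicates 1, 2 and 3. Of 22 genes of G2 and mitosis, the phases in which Gtse1 and Ckap2 peak, 2 fell, none rose and 20 did not pass (9.09% called, against 22.4%). None rose in DESeq2 either or had a higher level at an unadjusted edgeR p under 0.05. Cdc25b, a phosphatase gene of mitotic entry, fell from 27.4 ± 0.696 CPM in vehicle to 21.4 ± 0.878 CPM in 4OHT cells (log2 fold change -0.35, adjusted p = 0.00187 in edgeR), and Birc5, which encodes survivin, from 146 ± 6.45 to 126 ± 6.67 CPM (log2 fold change -0.18, adjusted p = 0.0436 in edgeR). The number of falls was 6 under the replicate block, 7 without 4OHT replicate 1, 1 without vehicle replicate 2, vehicle replicate 3 or 4OHT replicate 2, and 0 in DESeq2.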

How the data were processed

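RNA with poly(A) tails from 6 samples was made into NEBNext Ultra libraries, per the labels' protocols. The authors deposited whole-number read counts per gene symbol, and the submitters' processing notes name STAR, DESeq and mm9 without versions. Which counter, annotation and strand setting gave the counts was not given in the sources used here. Samples were grouped by title. edgeR 4.0.16 (R 4.3.3) was fitted to all 6 samples with treatment as the only term, after filterByExpr (minimum count 10) and TMM scaling, and p-values were adjusted by Benjamini-Hochberg over 14458 genes (threshold 0.05). Fold changes compare 4OHT with vehicle (prior count 0.125), the SE and 95% intervals come from this model, which weighs deep libraries more than the mean CPM does, and CPM are TMM-scaled. The procedure was tested on simulated counts.

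The members and gene lists were chosen with earlier results of these data known. All members are accounted for; of each other list up to 4 genes with the smallest adjusted p are given with values. The alternatives were RLE scaling, DESeq2 1.42.0, voom of limma 3.58.1 with quantile normalization, no filter, a mean count of at least 50, a replicate block, each library left out and, added after seeing the data, DESeq2 without 4OHT replicate 2. The labels do not say what a replicate number marks. Deviations of same-numbered samples from their group means correlated at 0.57, 0.15 and 0.39 over 3632 genes. The pair of vehicle replicate 2 and 4OHT replicate 3, with different numbers, reached 0.45. All 3 same-numbered values exceeded 0.1, the limit used for pairing, so the blocked fit is given where it changed the call of a member or moved a list's count by over 1.5 times. No pair of libraries agreed within sampling noise (lowest chi-square per degree of freedom 1.19). Exon lengths and overlaps are from GENCODE vM21 and promoters from RefSeq, both GRCm38, another build than mm9. No member had a copy with 95% identity over 50% of its transcript (blastn 2.17.0).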

Additional observations from a re-analysis of the deposited data

How the results depend on the processing

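Of the 11 called members none changed direction in the 13 alternatives, and 4 of them (Btg2, Perp, Ei24 and Sesn2) passed in all 13. The cause of the changes below was not tested. With DESeq2 944 genes were called in all, and with limma-voom and quantile normalization 2088, beside 3233 in edgeR. DESeq2 called 2 members higher and 3 lower, and 3 higher without 4OHT replicate 2, and limma-voom 3 higher. For regulators DESeq2 called 2 higher and 0 lower (1 lower without 4OHT replicate 2) and limma-voom 2 and 1. For further targets DESeq2 called 2 higher and 3 lower, limma-voom 7 lower and the replicate block 19 lower. For damage sensing DESeq2 and limma-voom called 0 higher and the block 1 lower. For repair DESeq2 called 1 higher and 0 lower (2 higher without 4OHT replicate 2), limma-voom 3 higher and the block 5 lower. For G2 and mitosis DESeq2 called 0 lower (1 without 4OHT replicate 2) and the block 6 lower.

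With 1 library left out, members called higher ranged from 3 to 6 and lower from 3 to 6, regulators from 2 to 5 and from 0 to 3, further targets from 4 to 7 and from 7 to 14, damage sensing from 0 to 6 and from 0 to 5, repair from 2 to 5 and from 2 to 5, and G2 and mitosis from 0 to 1 and from 1 to 7. The log2 fold change ranged from -0.0050 to 0.044 for Mdm2, -0.22 to 0.087 for Mdm4, -0.0030 to 0.031 for Gtse1, -0.23 to 0.25 for Fas, -0.20 to 0.19 for Polk and -0.23 to 0.064 for Ckap2, none of them called in the fit to all libraries. It also changed sign with limma-voom for Gtse1 (-0.018) and Fas (0.079), with the replicate block for Fas (0.043) and with DESeq2 for Polk (-0.013). The replicate block turned the calls of Trp53 and Phlda3 and of no other member or gene named by the rule. Depth limits Fas, Gadd45g, Rrm2b and Tap1 most, whose intervals are the widest.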
